A study of Mus musculus with 12 samples.

Results

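The genes described here encode the enzymes and regulators that make cholesterol and fatty acids. The list was taken by gene symbol and holds 32 of the 54532 genes counted in mouse colon, 17 of the sterol branch (from acetyl-CoA through mevalonate and squalene to cholesterol) and 15 of the fatty acid branch. RNA of the colon was sequenced from 12 samples of C57BL/6 mice in 4 groups of 3. The mice were male, 6 weeks old at the start and given 1 week of adaptation, and the study's methods put 8 mice in each group and took RNA of 3 colonic tissues from each. The labels give no genotype beyond the strain. Con mice received the vehicle by gavage according to the methods, while their label reads untreated. DSS mice drank dextran sulfate sodium at 3% for 5 days, a polymer that damages the lining of the colon. UA+DSS and DSS+UA mice had the same DSS and in addition ursolic acid (UA), a triterpenoid found in apple peel and herbs, by gavage of 200 mg/kg. UA began 1 day before the change to DSS water and was given for 7 days in UA+DSS (early UA). In DSS+UA (late UA) it began 3 days after that change, within the 5 days of DSS, and was given for 4 days. These durations are those of the methods, and other passages of the study's text give different ones. DSS colitis is an acute chemical injury, and the colon samples hold all layers and cells of the tissue that was cut.

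Cells make cholesterol and fatty acids from the same small unit, acetyl-CoA. The sterol-regulatory element-binding proteins SREBP2 (Srebf2) and SREBP1 (Srebf1) are held in the endoplasmic reticulum by INSIG proteins when sterol is plentiful and move to the nucleus to switch these genes on when it is scarce, SREBP2 mainly for the sterol branch and SREBP1 mainly for the fatty acid branch. The colon epithelium renews itself continuously and needs new membrane for it.

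The known SREBP sites of these genes lie close to their start, next to binding sites of NF-Y (CCAAT) and Sp1 (GGGCGG). RefSeq gave promoters on GRCm38.p6 for 25 of the 32 genes, and 7 (Fdft1, Fdps, Sqle, Stard4, Scd1, Scd2 and Fads1) had no entry. The last 150 bases before the start are shown, 5′ to 3′ in the direction of the gene, for the 7 genes that passed the test below in some comparison and have a single start in that table, and for Hmgcs1, which holds a CACCCCAC. They lie at chr13:119690201-119690350 (plus strand) for Hmgcs1, chr5:114444119-114444268 (plus strand) for Mvk, chr8:122443423-122443572 (minus strand) for Mvd, chr9:42264301-42264450 (minus strand) for Sc5d, chr2:155517893-155518042 (plus strand) for Acss2, chr11:100528001-100528150 (minus strand) for Acly, chr5:114165368-114165517 (plus strand) for Acacb and chr13:108214254-108214403 (plus strand) for Elovl7. The start given for Acacb lies inside the annotated gene. Capitals mark CCAAT or its reverse complement ATTGG, and CACCCCAC, the core letters of a sterol regulatory element. The stretch of Acly holds neither.
Hmgcs1: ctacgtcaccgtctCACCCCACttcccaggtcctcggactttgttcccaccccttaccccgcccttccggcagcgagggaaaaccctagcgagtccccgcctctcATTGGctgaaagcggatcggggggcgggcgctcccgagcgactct
Mvk: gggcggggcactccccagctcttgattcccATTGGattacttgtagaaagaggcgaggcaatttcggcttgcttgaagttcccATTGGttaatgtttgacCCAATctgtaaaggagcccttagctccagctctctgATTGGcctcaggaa
Mvd: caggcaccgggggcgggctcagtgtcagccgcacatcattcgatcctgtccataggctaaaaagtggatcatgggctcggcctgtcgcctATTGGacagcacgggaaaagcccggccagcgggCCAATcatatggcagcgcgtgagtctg
Sc5d: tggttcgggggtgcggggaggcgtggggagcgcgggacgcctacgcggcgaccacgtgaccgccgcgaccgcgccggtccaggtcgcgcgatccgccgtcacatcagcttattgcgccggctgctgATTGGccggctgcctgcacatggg
Acss2: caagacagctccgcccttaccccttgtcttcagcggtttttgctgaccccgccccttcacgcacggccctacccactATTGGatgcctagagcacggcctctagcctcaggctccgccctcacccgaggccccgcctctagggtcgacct
Acly: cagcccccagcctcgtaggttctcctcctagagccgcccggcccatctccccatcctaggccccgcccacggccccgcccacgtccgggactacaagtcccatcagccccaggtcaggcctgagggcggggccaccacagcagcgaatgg
Acacb: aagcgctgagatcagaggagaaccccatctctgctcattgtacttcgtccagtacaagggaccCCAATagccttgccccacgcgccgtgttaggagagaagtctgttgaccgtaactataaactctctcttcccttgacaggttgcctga
Elovl7: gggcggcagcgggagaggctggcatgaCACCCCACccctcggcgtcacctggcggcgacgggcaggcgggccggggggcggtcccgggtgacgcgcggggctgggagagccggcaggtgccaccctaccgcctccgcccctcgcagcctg

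Within 250 bases before a start, on either strand, CCAAT was found in 13 of 13 sterol genes and 7 of 12 fatty acid genes with an entry, against 37.5% of all 27018 genes with a promoter of that length. GGGCGG was found in 12 of 13 and 7 of 12, against 35.4%. CACCCCAC stood only in Hmgcs1 and Elovl7 among the 25 genes (2.98% of all genes), and the E box CACGTG in Insig1, Sc5d, Dhcr7 and Elovl5 (6.86%). A gene with several starts was counted once, in the members and in all genes, if any of them held the letters. Counted by promoter, CCAAT stood in 21 of 32 entries of the members against 33.9% of all 32841, and GGGCGG in 22 of 32 against 32.7%. These matches are a description of the windows. Binding was not measured.

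Total counts were 15566216 to 19498383 per library, and 17658 genes holding 99.8% of the counts passed the filter on low counts, all 32 members among them. Values are given as CPM, counts divided by the library total times its TMM factor and set to a common library size. The TMM factors, from 0.871 in DSS+UA 2 to 1.09 in DSS 1, thus enter the CPM values as well as the tests. A gene is said to rise or fall where edgeR's quasi-likelihood test gave an adjusted p under 0.05 over all tested genes (Benjamini-Hochberg). Libraries are named by group and replicate. DSS 2 and DSS 3 stood apart. DSS 2 held a summed 18447 CPM of 8 neutrophil markers against 921 and 1040 in DSS 1 and DSS 3. DSS 3 held a summed 14791 CPM of 8 pancreatic acinar markers against 31.4 to 554 in the other 11 libraries. The colon label was borne out by 10 epithelial markers at 7877 to 25704 summed CPM. Position along the colon was not labelled. A score was made from Hox genes, which mark position along the gut, by subtracting the mean log2 CPM of 6 proximal genes (Hoxb3 to Hoxb8) from the mean of 5 distal ones (Hoxd10 to Hoxd13 and Hoxb13). It was 5.52, -3.02 and -1.83 in Con, 3.10, 1.35 and 0.37 in DSS, -4.88, -5.70 and -4.16 in UA+DSS and 4.12, 4.48 and 5.06 in DSS+UA, so that the UA+DSS and DSS+UA groups did not overlap in it. In whole tissue, fewer cells of a type and less RNA per cell cannot be told apart, and although the methods count 3 tissues per group, the labels tie no sample to an animal, so p-values measure the spread between these samples.

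Levels between genes are compared as CPM per kilobase of exon. Scd2, a desaturase that puts the first double bond into a saturated fatty acid, was the most abundant member in every group, at 179.9 CPM per kb in Con and 400.1 in DSS+UA. Hmgcs1, the cytosolic synthase that joins acetyl units ahead of mevalonate, followed among the sterol genes with 73.2 in Con and 93.3 in DSS+UA. Scd2 alone held 40.0% ± 3.25 of the summed CPM of the 15 fatty acid genes in Con and 53.9% ± 2.92 in DSS+UA (SD, n = 3). Over all 12 libraries the lowest levels per kilobase were those of Fdps (1.41), Acacb (2.17) and Acaca (3.90).

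Across the 12 libraries the 2 branches lay lowest in DSS 2 and highest in DSS+UA. On the log2 scale, after each gene was centred on its mean over the libraries, the sterol branch averaged 0.08 ± 0.15 in Con, -0.38 ± 0.65 in DSS, -0.26 ± 0.45 in UA+DSS and 0.56 ± 0.17 in DSS+UA (SD, n = 3). The fatty acid branch averaged 0.04 ± 0.14, -0.22 ± 0.52, -0.06 ± 0.36 and 0.23 ± 0.08 in the same order. The 3 DSS+UA libraries, at 0.37, 0.67 and 0.64 for the sterol branch, lay above the other 9, which ran from -1.10 in DSS 2 to 0.23 in Con 3. For the fatty acid branch the groups overlapped, since UA+DSS 1 reached 0.28 and DSS 3 reached 0.23 where DSS+UA ran from 0.16 to 0.32. DSS 2 held the lowest of the 12 values for 12 of 17 sterol and 6 of 15 fatty acid genes, and UA+DSS 2 for 3 and 5. A DSS+UA library held the highest value for 16 of 17 and 10 of 15.

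**Figure D1:**
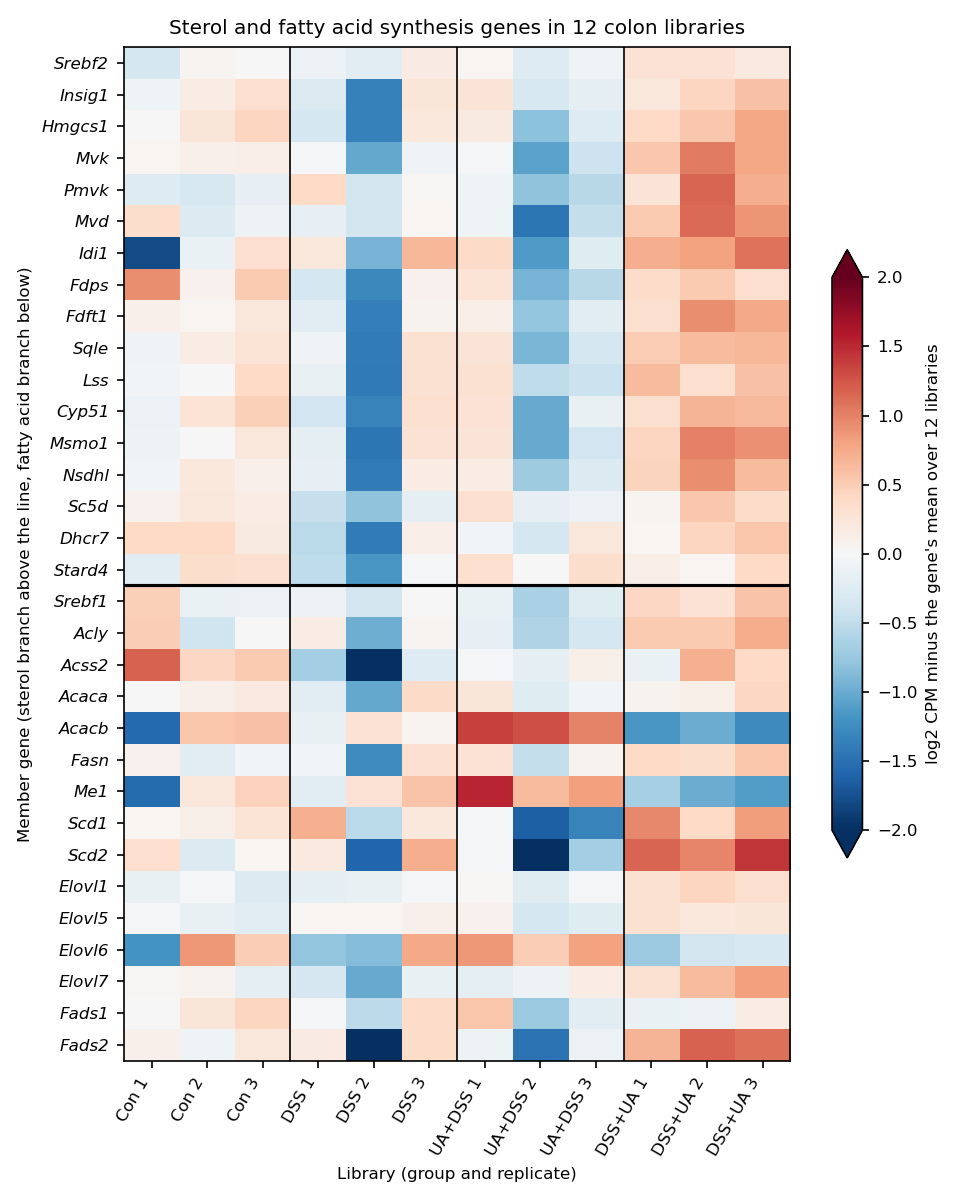
Log2 CPM of the 32 genes (rows) minus each gene's mean over the 12 libraries (columns, by group and replicate), with red above and blue below the mean. The sterol genes are low together in DSS 2 and UA+DSS 2 and high together in DSS+UA. In the fatty acid block Acacb and Me1 run the other way, as does Elovl6 except in DSS 2, where it is also low.

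The sterol branch minus the fatty acid branch was 0.04 ± 0.03 in Con and -0.16 ± 0.13 in DSS. It was -0.20 ± 0.08 in UA+DSS and 0.32 ± 0.12 in DSS+UA. The 3 DSS+UA libraries ran from 0.21 to 0.45 and the other 9 from -0.31 to 0.07, without overlap. The gap between DSS+UA and UA+DSS was not seen without Acacb, Me1 and Elovl6, while DSS stayed lower. With these 3 genes left out, after their values were seen, the difference was 0.05 ± 0.13 in DSS+UA, 0.06 ± 0.07 in UA+DSS, -0.002 ± 0.25 in Con and -0.11 ± 0.08 in DSS, and the remaining 12 fatty acid genes averaged 0.50 ± 0.11 in DSS+UA and -0.27 ± 0.60 in DSS. Relative to the mean of the 10 epithelial markers, the sterol branch was 0.02 ± 0.29 in Con, 0.16 ± 0.34 in DSS, -0.42 ± 0.49 in UA+DSS and 0.24 ± 0.17 in DSS+UA, and on that scale the 4 groups overlapped. The fatty acid branch was -0.02 ± 0.26 in Con, 0.32 ± 0.21 in DSS, -0.21 ± 0.40 in UA+DSS and -0.08 ± 0.28 in DSS+UA, again with overlap. On this scale its mean was lower in DSS+UA than in DSS, the reverse of the order without the markers.

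**Figure D2:**
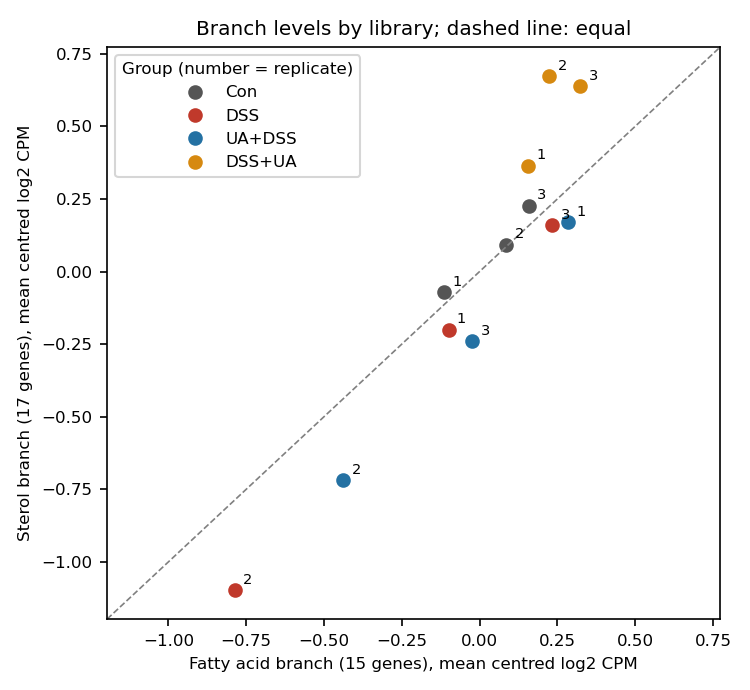
Mean centred log2 CPM of the 17 sterol genes (vertical) against that of the 15 fatty acid genes (horizontal), 1 point for each library, colored by group and numbered by replicate, with a dashed line where both are equal. The DSS+UA points lie above the line, at sterol values of 0.37 to 0.67, and DSS 2 lies lowest on both axes.

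DSS against Con asks what the injury did. Acss2, which makes acetyl-CoA from acetate, and Sc5d, a late sterol desaturase, fell, and none of the 32 genes rose. Acss2 (chr2:155517948-155585724) measured 190.1, 111 and 120.1 CPM in Con and 52.0, 20.0 and 69.6 in DSS. The groups did not overlap, and DSS 2 was the lowest library. The log2 fold change was -1.57 ± 0.39 (SE, edgeR adjusted p = 0.0158). Sc5d (chr9:42251595-42264256) measured 96.6, 106 and 100.4 CPM in Con and 65.6, 51.7 and 79.4 in DSS, again without overlap, with a log2 fold change of -0.62 ± 0.19 (edgeR adjusted p = 0.0363). The 2 genes that fell are 6.25% of the members, against 12.6% of all tested genes lower in DSS (and 13.9% higher), so the share was below the background. At an unadjusted p under 0.05 there were 5 members (15.6%), against 40.6% of all genes.

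The direction among the other members was mostly negative, without passing the test. The log2 fold change was negative for 14 of 17 sterol genes (median -0.43) and 10 of 15 fatty acid genes (median -0.25), where the median over all genes was -0.03. The groups did not overlap, with DSS lower, for 4 of the 32 genes (12.5%), against 20.1% of all genes. Dhcr7, the reductase of the last step to cholesterol, and the sterol carrier Stard4 gave -0.81 ± 0.31 and -0.67 ± 0.27 (edgeR adjusted p = 0.0777 and 0.0871). Dhcr7 measured 108, 109 and 92.8 CPM in Con and 56.2, 30.9 and 89.9 in DSS, so that DSS 3 came close to Con 3. Srebf2 measured 254 ± 36.9 CPM in Con and 261 ± 38.4 in DSS (SD, n = 3), and Srebf1 measured 118 ± 30.0 and 99.1 ± 12.6.

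The 3 DSS libraries differed more among themselves than the group means did. DSS 2 was the lowest of the DSS libraries for 17 of 17 sterol and 12 of 15 fatty acid genes, and DSS 3 the highest for 15 and 12. The median ratio of DSS 3 to DSS 2 was 2.91 for the sterol genes and 1.86 for the fatty acid genes. Hmgcs1 was 224, 112 and 331 CPM in the 3 libraries, and Scd2 1084, 318 and 1569.5. DSS 2 also had the lowest epithelial marker sum (7877 CPM, against 10587 in DSS 1 and 12630 in DSS 3) and the lowest surface colonocyte marker sum of all libraries (470 CPM of 8 genes). The part of these in the members' levels was not tested. Leaving out DSS 2 moved the sterol median from -0.43 to -0.15 and the fatty acid median from -0.25 to 0.01. Leaving out DSS 3 moved them to -0.78 and -0.47. That fit called 4 members, and 4284 of all 18274 tested genes. Without Con 1 the fatty acid median was -0.10 and without Con 3 it was -0.14. Acss2 lost its call without Con 1 (0.0516), the adjusted p in brackets. Sc5d lost it without Con 1 (0.0563), Con 2 (0.101), Con 3 (0.0656), DSS 1 (0.0871), DSS 2 (0.104) or DSS+UA 3 (0.0528). No member was called without Con 1, where 3891 of all 18109 genes were. There was 1 each without Con 2 (2894 of 18281 genes), Con 3 (4030 of 18207) or DSS 1 (3087 of 18231). There was also 1 each without DSS 2 (3484 of 18126) or DSS+UA 3 (3995 of 18271).

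Around these genes, the lists of the same pathways moved as follows in DSS against Con. Of 9 other sterol synthesis enzymes, Lbr, a sterol reductase of the nuclear envelope, rose by a log2 fold change of 0.92 (edgeR adjusted p = 0.00925), and Tm7sf2, the reductase of the same step in the endoplasmic reticulum, fell (-1.20, 0.0300). Of 8 genes of sterol storage and export, 2 rose and none fell: the exporters Abca1 (2.52, 0.00408) and Abcg1 (1.36, 0.00539). None of 10 genes of SREBP processing and sterol sensing was called. Of 20 other fatty acid genes tested, 2 rose, G6pdx (0.88, 0.00588) and Pgd (0.65, 0.0170), which make the NADPH these pathways use, and 3 fell. Of 14 genes of triglyceride assembly and lipid droplets, 2 rose, Acsl4 most clearly (1.78, 0.00132), and 1 fell. Macrophage and neutrophil markers were each called higher for 7 of 8 genes in the same comparison and fibroblast markers for 6 of 8, while surface colonocyte and goblet cell markers were each called lower for 2 of 8. Their part in these results was not tested.

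DSS+UA against DSS asks what late UA did in mice given DSS. All 17 sterol genes and 11 of 15 fatty acid genes had positive log2 fold changes, with medians of 0.83 and 0.53 against 0.02 over all genes, and 4 genes passed the test, all of them higher: Mvk, Sc5d, Elovl1 and Elovl7. They are 12.5% of the members, against 2.54% of all tested genes higher in DSS+UA (and 5.0% lower). At an unadjusted p under 0.05 there were 12 sterol and 8 fatty acid genes, 2 of the latter (Acacb and Me1) lower, which is 62.5% of the members against 29.9% of all genes. The CPM of DSS+UA lay above DSS without overlap for 14 of 17 sterol and 9 of 15 fatty acid genes (23 of 32, 71.9%), against 18.3% of all genes.

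Mvk, mevalonate kinase (chr5:114444269-114460591), measured 42.4, 44.2 and 45.1 in Con, 39.8, 20.1 and 39.0 in DSS, 40.7, 19.6 and 30.9 in UA+DSS and 60.1, 85.1 and 70.3 in DSS+UA (CPM). Each DSS+UA library lay above the other 9, and DSS 2 and UA+DSS 2 were lowest. Against DSS its log2 fold change was 1.12 ± 0.29 (SE, edgeR adjusted p = 0.0439). Sc5d measured 113, 81.3 and 83.5 CPM in UA+DSS and 94.7, 132 and 117 in DSS+UA, where the 3 DSS libraries given above lay below all 6. In DSS+UA it gave a log2 fold change of 0.80 ± 0.20 (edgeR adjusted p = 0.0374). The other kinase and the decarboxylase of the mevalonate steps, Pmvk and Mvd, gave 0.71 ± 0.26 and 1.03 ± 0.31 and missed the threshold (edgeR adjusted p = 0.103 and 0.0593).

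Hmgcs1 measured 284, 337 and 387 in Con, 224, 112 and 331 in DSS, 324, 162 and 239.9 in UA+DSS and 379, 415 and 492 in DSS+UA (CPM). DSS+UA lay above DSS without overlap, while DSS+UA 1 lay below Con 3. Its log2 fold change against DSS was 0.95 ± 0.35 (edgeR adjusted p = 0.107). In the later steps, farnesyl diphosphate synthase Fdps gave 0.84, squalene synthase Fdft1 1.08, squalene epoxidase Sqle 0.83, lanosterol synthase Lss 0.77, lanosterol demethylase Cyp51 0.88, methylsterol monooxygenase Msmo1 1.08, the sterol dehydrogenase Nsdhl 1.03 and Dhcr7 0.83, with edgeR adjusted p of 0.0644 to 0.189. The DSS+UA values were 240.0, 359 and 336 CPM for Msmo1, against 157, 65.5 and 219 in DSS. They did not overlap, although DSS+UA 1 and DSS 3 were close. Insig1, which retains SREBP in the endoplasmic reticulum and is itself switched on by it, gave 0.75 ± 0.32, Stard4 0.69 ± 0.27, the isomerase Idi1 0.75 ± 0.54 and Srebf2 0.31 ± 0.17 (edgeR adjusted p = 0.148, 0.119, 0.382 and 0.25).

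Among the fatty acid genes, the elongases Elovl7 and Elovl1 rose. Elovl7 (chr13:108214404-108285683) measured 86.1, 89.0 and 74.0 in Con, 66.7, 41.8 and 76.5 in DSS, 73.7, 78.7 and 93.4 in UA+DSS and 104, 131 and 149 in DSS+UA (CPM). All 3 DSS+UA libraries lay above the other 9, and DSS 2 was lowest. Its log2 fold change against DSS was 1.05 ± 0.22 (edgeR adjusted p = 0.026). Elovl1 (chr4:118428093-118432953), which extends very long chains, measured 78.1, 84.9 and 71.8 in Con, 75.0, 77.7 and 85.4 in DSS, 87.8, 73.2 and 84.5 in UA+DSS and 107, 116 and 108 in DSS+UA (CPM). DSS+UA again lay above all 9 others, by a smaller step of 0.48 ± 0.13 (edgeR adjusted p = 0.0457), and the other 9 libraries ran from 71.8 to 87.8.

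Acss2 gave 1.19 ± 0.39, Scd2 1.14 ± 0.58 and Fads2, the first desaturase of polyunsaturated fatty acids, 1.18 ± 0.52, folds as large as that of Mvk, with a spread between libraries that kept edgeR's adjusted p at 0.0766, 0.208 and 0.157. Acss2 measured 76.5, 137 and 110.2 CPM in DSS+UA, above the DSS libraries and, for DSS+UA 1 and DSS+UA 3, below the lowest Con library. Fasn, the synthase that builds palmitate, measured 229, 183 and 207 in Con, 208, 89.6 and 269 in DSS, 264, 155 and 227 in UA+DSS and 284, 276 and 317 in DSS+UA (CPM). DSS+UA lay above all 9 others in Fasn, with DSS 3 close beneath it, and the fit gave 0.63 ± 0.33 (edgeR adjusted p = 0.225). Acly, which splits citrate to acetyl-CoA, gave 0.78, Srebf1 0.58, Scd1 0.53, the carboxylase Acaca 0.38, Elovl5 0.19 and the desaturase Fads1 -0.01 (edgeR adjusted p = 0.0872 for Srebf1 up to 0.987 for Fads1).

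**Figure D3:**
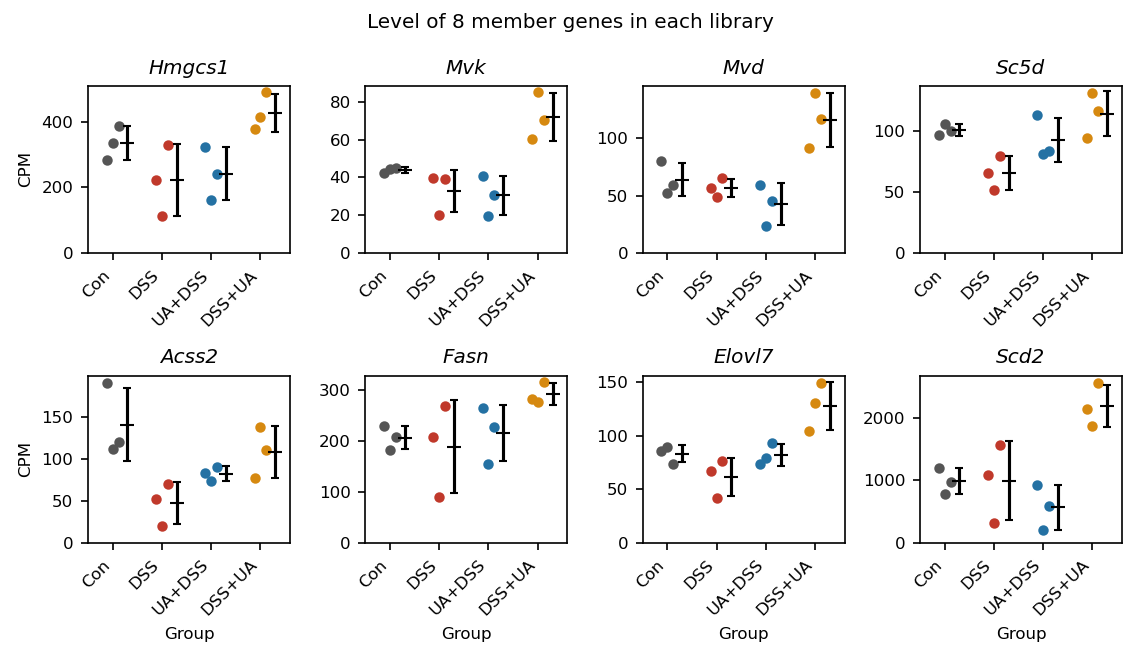
CPM (vertical, from 0) of 8 members in each library, by group (horizontal), with the mean and SD of the 3 libraries as a bar beside the points. DSS+UA lies above the other 9 libraries for Mvk, Mvd, Fasn, Elovl7 and Scd2, and Acss2 is lowest in DSS, with Con, UA+DSS and DSS+UA above it.

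The 4 calls in DSS+UA against DSS depended on single libraries. Mvk lost its call without Con 2 (0.0583), Con 3 (0.0513), DSS 2 (0.096), UA+DSS 1 (0.0512), UA+DSS 3 (0.0648), DSS+UA 1 (0.0503), DSS+UA 2 (0.158) or DSS+UA 3 (0.12), edgeR's adjusted p in brackets, and Sc5d without Con 2 (0.0518), DSS 1 (0.0619), DSS 2 (0.0952), UA+DSS 2 (0.053), UA+DSS 3 (0.0543), DSS+UA 2 (0.143) or DSS+UA 3 (0.117). Elovl7 lost it without DSS+UA 2 (0.0862) or DSS+UA 3 (0.104), and Elovl1 without Con 2 (0.0574), DSS 1 (0.0899), DSS 2 (0.104), UA+DSS 1 (0.068), UA+DSS 2 (0.0595), UA+DSS 3 (0.0679), DSS+UA 1 (0.0627), DSS+UA 2 (0.166) or DSS+UA 3 (0.123). Called members numbered 11 without DSS 3 (1438 of all 18274 genes) and 7 without Con 1 (1825 of 18109). There were 2 without DSS 1 (1126 of 18231), UA+DSS 1 (621 of 18263) or DSS+UA 1 (957 of 18262). There was 1 without Con 2 (896 of 18281), DSS 2 (397 of 18126) or UA+DSS 3 (580 of 18314). The count was 0 without DSS+UA 2 or DSS+UA 3. Without either of these, 0.00% of all tested genes were called higher in DSS+UA (142 and 25 genes lower), so the loss extended to the whole comparison. The sterol median stayed between 0.55 (without DSS 2) and 1.20 (without DSS 3), and the fatty acid median was 0.31 without DSS 2. Epithelial markers moved in the same comparison: 5 of 10 were called higher in DSS+UA and none lower, and their sum was 16514 to 25704 CPM against 7877 to 12630 in DSS. Fibroblast markers were called lower for 3 of 8 genes and neutrophil markers for 1 of 8. Their part in the result was not tested. The Hox position scores of DSS+UA (4.12 to 5.06) lay above those of DSS (0.37 to 3.10) without overlap, so position and late UA cannot be told apart here. With the score as a covariate the sterol and fatty acid medians were 0.88 and 0.49. No member was called in that fit, against 1.13% of all genes.

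Of the 9 other sterol synthesis enzymes, 4 rose in DSS+UA against DSS and none fell. Ebp, the sterol isomerase, gave 1.03 (edgeR adjusted p = 0.0276), and Erg28, which tethers the enzymes that remove methyl groups, 0.89 (0.0370). None of the 10 genes of SREBP processing was called. Abca1 fell (-2.44, 0.0187) and was the only call among 8 storage and export genes. Tecr, a reductase of fatty acid elongation, was the only call among 20 other fatty acid genes (0.75, 0.0386). Acsl4 fell (-1.25, 0.0134), alone among 14 genes of triglyceride assembly.

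**Figure D4:**
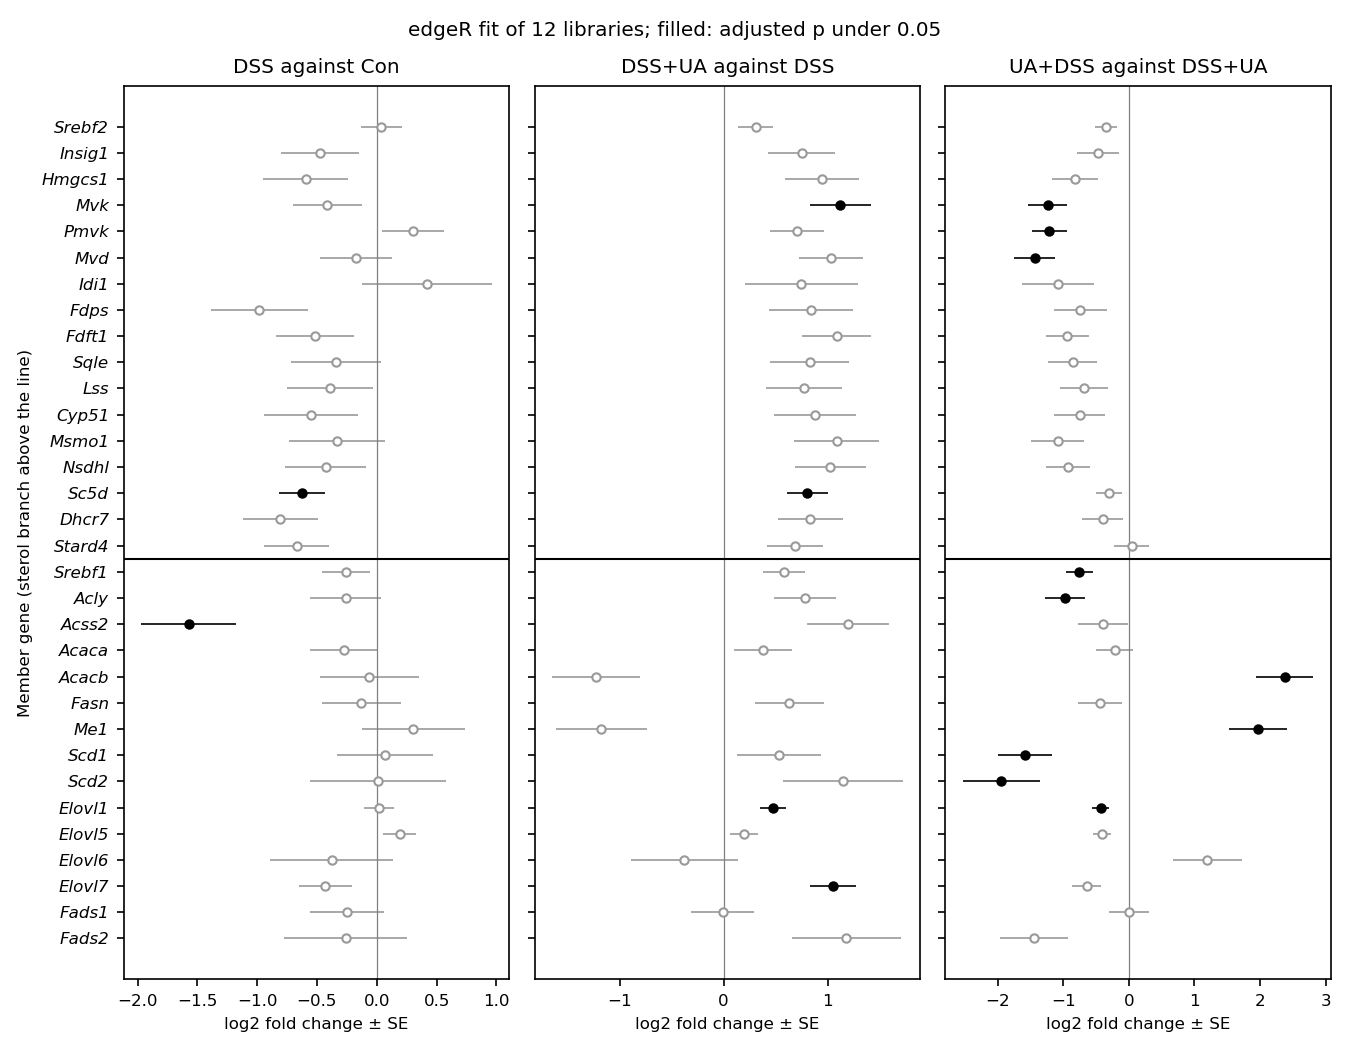
Log2 fold change ± SE (horizontal) of the 32 genes (vertical, sterol branch above the line) in DSS against Con, DSS+UA against DSS and UA+DSS against DSS+UA, filled where edgeR's adjusted p was under 0.05. In the middle panel all 17 sterol genes lie right of 0, and in the right panel 16 of 17 lie left of it, while Acacb and Me1 go the opposite way.

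DSS+UA against Con sets late UA beside the uninjured colon. Pmvk, phosphomevalonate kinase (chr3:89454541-89469013), and Elovl1 rose. Pmvk measured 33.0, 31.7 and 35.1 in Con, 52.2, 30.8 and 40.0 in DSS, 37.1, 22.5 and 27.0 in UA+DSS and 47.3, 88.3 and 65.3 in DSS+UA (CPM). DSS+UA lay above Con without overlap, and DSS 1 lay above DSS+UA 1. Its log2 fold change was 1.01 ± 0.26 (SE, edgeR adjusted p = 0.025), and that of Elovl1 was 0.50 ± 0.13 (edgeR adjusted p = 0.0232). The 2 genes are 6.25% of the members, against 9.13% of all tested genes higher (and 8.95% lower). The sign was positive for 16 of 17 sterol and 10 of 15 fatty acid genes, with medians of 0.38 in both branches against -0.03 over all genes. With upper-quartile or library-size scaling 14 of 17 sterol genes were positive. The groups did not overlap, with DSS+UA higher, for 9 and 8 genes (17 of 32, 53.1%), against 19.8% of all genes.

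Mvd gave 0.86 ± 0.30, Mvk 0.71 ± 0.29, Elovl7 0.62 ± 0.22 and Elovl5, an elongase of polyunsaturated chains, 0.38 ± 0.13 against Con (edgeR adjusted p = 0.0701, 0.102, 0.0676 and 0.0682). Of the late sterol genes, Sc5d (0.18) and Dhcr7 (0.03) were near Con, while Msmo1 (0.75) and Nsdhl (0.60) lay above it without overlap. Cyp51 gave 0.33. The carrier Stard4 (0.02) was near Con, and the earlier genes Hmgcs1 and Fdps gave 0.35 and -0.14. Pmvk lost its call without Con 1 (0.0503), Con 2 (0.0692), Con 3 (0.061), DSS+UA 2 (0.0798) or DSS+UA 3 (0.0668), edgeR's adjusted p in brackets, and Elovl1 without Con 3 (0.0773), DSS+UA 2 (0.0592) or DSS+UA 3 (0.0642). Called members numbered 5 without DSS 2 (4057 of all 18126 genes) and 1 without Con 2 (1886 of 18281). The count was 0 without Con 3 (1563 of 18207), DSS+UA 2 (2151 of 18324) or DSS+UA 3 (1062 of 18271). Called in the other lists were Acat2, which joins acetyl-CoA at the entry to mevalonate (0.94, 0.0324), Abcg1 (0.82, 0.0493), and 4 of 20 other fatty acid genes, of which Pgd (1.18, 0.00489) and G6pdx (0.92, 0.00785) rose, with none in SREBP processing or triglyceride assembly. Of 8 cell cycle markers 4 were called higher in DSS+UA than in Con, and of 10 epithelial markers none. Of 8 neutrophil markers 7 were called higher (median log2 fold change 8.74), and 3 of 8 smooth muscle markers (median -1.85) and 2 of 8 surface colonocyte markers were called lower. The part of these cells in the members' values was not tested.

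UA+DSS against DSS asks what early UA did. None of the 32 genes passed edgeR's test, where 8.21% of all tested genes were called higher and 10.5% lower in UA+DSS. At an unadjusted p under 0.05 there were 4 (Stard4, Sc5d, Acacb and Scd1), 12.5% of the members against 34.6% of all genes. DESeq2 called 3 members and limma-voom 0, against 25.5% and 17.5% of all genes, so that the members lay below the background in each. The log2 fold change was positive for 10 of 17 sterol and 8 of 15 fatty acid genes, with medians of 0.10 and 0.04. With library size alone the fatty acid median was negative, at -0.05. The groups did not overlap, with UA+DSS higher, for 5 of 32 genes (15.6%), against 21.1% of all genes. Stard4 measured 194, 287 and 281 in Con, 158, 100.1 and 221 in DSS, 284, 223 and 288 in UA+DSS and 245, 231 and 295 in DSS+UA (CPM). All 3 UA+DSS libraries lay above the DSS ones, by 0.73 ± 0.27 on the log2 scale (edgeR adjusted p = 0.0798). Sc5d gave 0.50 ± 0.19 and Acss2, at 82.7, 73.4 and 90.4 CPM in UA+DSS, 0.80 ± 0.39 (edgeR adjusted p = 0.093 and 0.17).

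UA+DSS 2 was the lowest of its group for 17 of 17 sterol and 13 of 15 fatty acid genes, with a median ratio of UA+DSS 1 to UA+DSS 2 of 1.86 for the sterol genes and 1.39 for the fatty acid genes. Its epithelial marker sum, 16604 CPM, lay between those of the other 2 libraries, 15125 and 18028, and its cell cycle marker sum was the lowest of the 12 libraries (330 CPM of 8 genes). Their part in the members' levels was not tested. The sterol median ran from -0.21 without DSS 2 and -0.19 without UA+DSS 1 to 0.29 without UA+DSS 2 and 0.44 without DSS 3, so its sign rested on single libraries, and the fatty acid median ran from -0.15 without DSS 2 to 0.24 without UA+DSS 2. Without DSS 3 there were 4 called members, where 3601 of all 18274 genes were called. There was 1 without Con 1 (4112 of 18109 genes) or UA+DSS 1 (1936 of 18263). Among the other lists Insig2, the second INSIG protein, rose (0.72, edgeR adjusted p = 0.0177). Of 8 storage and export genes 1 rose and 2 fell, Abcg1 and Abca1 (-1.16 and -1.92, edgeR adjusted p = 0.0160 and 0.0165). Of 14 genes of triglyceride assembly 3 rose, Lpin2 most clearly (1.40, 0.0209), and Acsl4 fell (-1.58, 0.00628). Lbr (-0.95, 0.0148) was the only call among 9 other sterol enzymes, and G6pdx (-0.84, 0.0131) among 20 other fatty acid genes. Of 8 cell cycle markers 6 fell, as did 8 of 8 neutrophil, 5 of 8 fibroblast and 4 of 8 macrophage markers, while 3 of 8 surface colonocyte and 2 of 10 epithelial markers rose. Their part in the members' values was not tested. The Hox position scores of UA+DSS (-5.70 to -4.16) and DSS (0.37 to 3.10) did not overlap, so position and early UA cannot be told apart here. Of 6 proximal Hox genes 5 were called higher in UA+DSS, and of 5 distal ones 2 were called lower. With the score as a covariate in the edgeR fit, 3 of 17658 genes were called.

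UA+DSS against Con asks how near early UA came to the uninjured colon. No member passed edgeR's test, and 0.00566% of all tested genes were higher (1 gene) and 0.00% lower. At an unadjusted p under 0.05 there were 3 (Acacb, Me1 and Scd1), 9.38% of the members against 12.1% of all genes, and DESeq2 and limma-voom called 0 members, against 2.13% and 0.00% of all genes. The log2 fold change was negative for 15 of 17 sterol and 10 of 15 fatty acid genes, with medians of -0.34 and -0.12 against -0.01 over all genes. UA+DSS lay below Con without overlap for 1 sterol and 3 fatty acid genes (4 of 32, 12.5%), against 11.0% of all genes. Scd1 measured 80.8, 85.6 and 95.1 in Con, 129, 54.1 and 91.5 in DSS, 76.4, 25.2 and 31.1 in UA+DSS and 153, 103 and 140.5 in DSS+UA (CPM). The UA+DSS libraries all lay below Con, and UA+DSS 2 and UA+DSS 3 below all others, with -0.98 ± 0.40 on the log2 scale (edgeR adjusted p = 0.381). The sterol median was -0.60 without UA+DSS 1 and -0.13 without UA+DSS 2, and the fatty acid median -0.25 and -0.003 in turn. The Hox position scores of UA+DSS (-5.70 to -4.16) lay below those of Con (-3.02, -1.83 and 5.52). At an unadjusted p under 0.05 in edgeR, 6 of 6 proximal Hox genes were higher in UA+DSS, and 0 were called. Nearness to Con and position along the colon cannot be told apart here.

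UA+DSS against DSS+UA compares early with late UA directly, and gave the most calls among the members. Of the sterol branch Mvk, Pmvk and Mvd, 3 consecutive steps of the mevalonate pathway, were lower in UA+DSS. Of the fatty acid branch Srebf1, Acly, Scd1, Scd2 and Elovl1 were lower, and Acacb and Me1 higher. The 8 lower genes are 25.0% of the members, against 9.23% of all tested genes, and the 2 higher ones 6.25%, against 7.54%. The median log2 fold change was -0.82 in the sterol branch (16 of 17 negative) and -0.43 in the fatty acid branch (12 of 15 negative), against 0.01 over all genes. UA+DSS lay below DSS+UA without overlap for 13 sterol and 9 fatty acid genes (22 of 32, 68.8%), against 22.5% of all genes. It lay above for 3 fatty acid genes, Acacb, Me1 and Elovl6 (9.38%), against 22.7%.

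Mvd, the decarboxylase that makes isopentenyl diphosphate (chr8:122433601-122443422), measured 80.5, 52.2 and 59.1 in Con, 56.4, 48.8 and 64.9 in DSS, 59.3, 23.1 and 45.7 in UA+DSS and 91.5, 139 and 117 in DSS+UA (CPM). DSS+UA lay above all 9 others, and UA+DSS 2 was lowest. The log2 fold change of UA+DSS against DSS+UA was -1.44 ± 0.31 (SE, edgeR adjusted p = 0.014), that of Mvk -1.24 ± 0.29 (0.019) and that of Pmvk -1.22 ± 0.26 (0.0145). Hmgcs1 gave -0.82 ± 0.35, Fdft1 -0.94 ± 0.33, Msmo1 -1.09 ± 0.40 and Nsdhl -0.93 ± 0.34 (edgeR adjusted p = 0.128, 0.0723, 0.0847 and 0.0797). The smallest differences of the branch were those of Stard4 (0.04), Sc5d (-0.30), Srebf2 (-0.35) and Dhcr7 (-0.40).

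Scd2 (chr19:44293674-44306864) measured 1196, 779.7 and 973 in Con, 1084, 318 and 1569.5 in DSS, 918, 195 and 590.3 in UA+DSS and 2134, 1873 and 2552 in DSS+UA (CPM). DSS+UA lay above all 9 others, and UA+DSS 2 and DSS 2 were lowest. The fit gave -1.94 ± 0.59 on the log2 scale (edgeR adjusted p = 0.0449), and for Scd1 (chr19:44394455-44407879) -1.58 ± 0.41 (0.0268). Srebf1 (chr11:60199089-60222581) measured 153, 100.1 and 102 in Con, 103, 85.0 and 109 in DSS, 100.4, 70.4 and 92.6 in UA+DSS and 147, 135 and 164 in DSS+UA (CPM). Con 1 lay within the DSS+UA range, and the UA+DSS and DSS+UA libraries did not overlap. Its log2 fold change was -0.76 ± 0.20 (edgeR adjusted p = 0.0287). Acly (chr11:100476353-100528000) measured 439, 236 and 314 in Con, 345, 158 and 323 in DSS, 277, 204 and 244 in UA+DSS and 449, 449 and 522 in DSS+UA (CPM), with -0.97 ± 0.30 (0.0485). Con 1 again came close to DSS+UA, and DSS 2 was lowest. Elovl1 gave -0.43 ± 0.13 (0.039). Fads2 measured 88.5, 34.4 and 87.8 CPM in UA+DSS and 153, 216 and 205 in DSS+UA, without overlap, and gave -1.45 ± 0.52 (edgeR adjusted p = 0.0806).

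Acacb, the carboxylase at the mitochondrion whose product slows fatty acid oxidation, and Me1, malic enzyme, which makes NADPH, went the other way. Acacb (chr5:114146535-114250761) measured 5.64, 24.8 and 25.2 in Con, 15.2, 20.7 and 17.4 in DSS, 43.5, 41.3 and 33.7 in UA+DSS and 7.48, 8.41 and 6.93 in DSS+UA (CPM). UA+DSS lay above all 9 others, and DSS+UA and Con 1 below all others. The log2 fold change of UA+DSS against DSS+UA was 2.38 ± 0.44 (edgeR adjusted p = 0.00874). Me1 (chr9:86581371-86695953) measured 5.95, 20.6 and 24.1 in Con, 15.1, 21.4 and 26.0 in DSS, 50.7, 27.1 and 30.8 in UA+DSS and 11.0, 8.72 and 7.98 in DSS+UA (CPM), with 1.97 ± 0.45 (0.0173). The order was alike, with Con 1 lowest and UA+DSS highest. Elovl6, which extends palmitate to stearate, measured 34.7, 146 and 112 in Con, 46.4, 43.6 and 135 in DSS, 146, 112 and 139.5 in UA+DSS and 47.9, 61.5 and 63.8 in DSS+UA (CPM), with 1.20 ± 0.52 (edgeR adjusted p = 0.133). In all 3 genes Con 1 lay below the other Con libraries, by more than in any other member but Idi1.

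Acacb, Me1 and Elovl6 varied with the Hox position score of the library. Con 1 had the highest score (5.52) and the lowest Acacb, Me1 and Elovl6, DSS+UA had scores of 4.12 to 5.06 and low values, and UA+DSS had the lowest scores and high values. With the score as a covariate in the edgeR fit, the difference between UA+DSS and DSS+UA was 0.01 for Acacb, -0.22 for Me1 and -1.13 for Elovl6 (adjusted p = 0.993, 0.884 and 0.480). Acacb and Me1 were not alone in coming nearer to 0, since Srebf1 and Acly, in which Con 1 also lay near DSS+UA, came to -0.07 and -0.09. The other called genes kept more of their difference, at -1.16 for Mvk, -1.01 for Pmvk, -0.77 for Mvd, -1.49 for Scd1, -1.38 for Scd2 and -0.48 for Elovl1, and the sterol and fatty acid medians were -0.99 and -0.33. No member was called in that comparison, and 0.00% of all tested genes were (2250 of 17658 at an unadjusted p under 0.05), so the loss of calls is not particular to the members. The scores of these 2 groups do not overlap, so position and the timing of UA cannot be told apart here. In the same fit DSS against Con had 4 called members (12.5%, against 30.5% of all genes), Acss2 and Sc5d lower and Acacb (0.56, adjusted p = 0.0481) and Me1 (0.81, 0.0418) higher. The markers of adipocytes, fat cells that also make Acacb and Me1, summed to 193 to 382 CPM in UA+DSS, 105 to 169 in DSS+UA, 107 to 203 in Con and 174 to 323 in DSS. In UA+DSS against DSS+UA 9 of 9 tested had positive log2 fold changes (median 2.37). Of these, 5 had an unadjusted p under 0.05 in edgeR and 1 was called higher. Their part in the result was not tested.

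**Figure D5:**
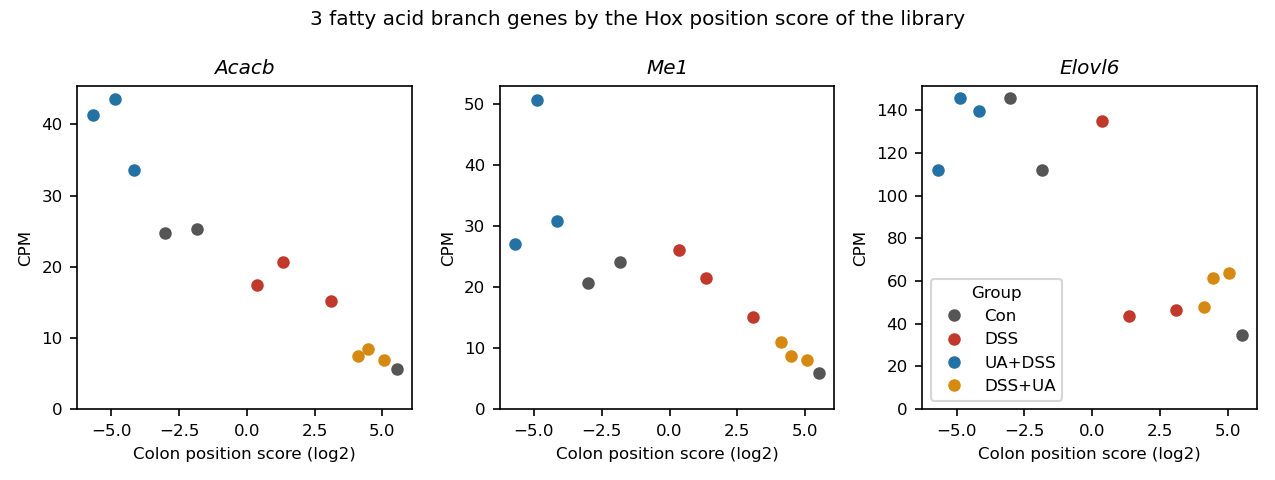
CPM (vertical) of Acacb, Me1 and Elovl6 in each library against the library's Hox position score (horizontal, log2, high where distal Hox genes prevail), colored by group. Con 1, at a score of 5.52, lies with the DSS+UA libraries and below the other 2 Con libraries in all 3 panels.

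Of the 10 calls, Mvd and Acacb were kept without each library in turn. Mvk lost its call without UA+DSS 2 (0.0744), DSS+UA 2 (0.0514) or DSS+UA 3 (0.0534), edgeR's adjusted p in brackets, Pmvk without UA+DSS 2 (0.0682) and Me1 without UA+DSS 1 (0.0569), DSS+UA 2 (0.0514) or DSS+UA 3 (0.0693). Srebf1 lost it without UA+DSS 2 (0.119), UA+DSS 3 (0.0627), DSS+UA 1 (0.0609) or DSS+UA 3 (0.0968), and Scd1 without UA+DSS 2 (0.098), UA+DSS 3 (0.0807), DSS+UA 1 (0.0681) or DSS+UA 3 (0.0739). Acly lost it without Con 3 (0.0602), DSS 1 (0.0506), DSS 3 (0.0516), UA+DSS 1 (0.0867), UA+DSS 2 (0.165), UA+DSS 3 (0.108), DSS+UA 1 (0.0846), DSS+UA 2 (0.0798) or DSS+UA 3 (0.133). Scd2 lost it without Con 2 (0.0596), Con 3 (0.0593), DSS 1 (0.0572), UA+DSS 2 (0.125), UA+DSS 3 (0.104), DSS+UA 1 (0.0848), DSS+UA 2 (0.0714) or DSS+UA 3 (0.116). Elovl1 lost it without Con 2 (0.0505), UA+DSS 1 (0.0719), UA+DSS 2 (0.159), UA+DSS 3 (0.0796), DSS+UA 1 (0.0654), DSS+UA 2 (0.0854) or DSS+UA 3 (0.0898). The count was 18 without DSS 2 (3609 of all 18126 genes). It was 5 without UA+DSS 3 (1656 of 18314), DSS+UA 1 (1700 of 18262) or DSS+UA 2 (2098 of 18324). It was 3 without UA+DSS 2 (560 of 18260) or DSS+UA 3 (931 of 18271). Of 8 cell cycle markers 7 were called lower in UA+DSS, and of 10 epithelial markers none in either direction. Smooth muscle markers were called higher for 4 of 8 genes (8 of 8 at an unadjusted p under 0.05, median log2 fold change 1.73), surface colonocyte markers were called higher for 3 of 8 and neutrophil markers lower for 2 of 8. The part of these cells in the members' values was not tested. Of the other lists, 3 of 9 sterol enzymes were lower, Acat2 most clearly (-1.73, edgeR adjusted p = 0.00734), and 1 higher. G6pdx (-0.89, 0.0101) and Pgd (-0.73, 0.0172) were among 4 of 20 other fatty acid genes that were lower, and 1 was higher. Insig2 (0.60, 0.0337), Nceh1, which frees stored cholesterol (2.33, 0.0108), and Lpin2 (1.97, 0.00822) were each the only call of their list and higher.

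For some members the counts are uncertain, since other genes overlap them or share stretches of 50 bases with them. The shared part was 30.4% for Acaca (with Gm5182), 28.3% for Me1 (with Gm7049), 26.5% for Fdft1, 26.2% for Fdps, 25.3% for Idi1 and 11.6% for Hmgcs1, 6.13% for Acss2 and at most 4.56% for the other 25 genes. Fdft1 overlaps Ctsb on the other strand over 18.3% of its exon bases, and Ctsb, a protease, rose in DSS against Con (1.10, edgeR adjusted p = 0.00431). Fdps overlaps Gm43738 on the same strand over 26.7% of its exon bases. Fdps itself counted 10.4, 5.77 and 7.91 in Con, 4.23, 2.15 and 5.81 in DSS, 6.61, 2.81 and 3.67 in UA+DSS and 7.06, 7.92 and 6.87 in DSS+UA (CPM), while Gm3571, a copy of it, counted 11.0 ± 4.73 CPM in DSS and 24.4 ± 4.37 in DSS+UA (SD, n = 3). The copy was lower in UA+DSS than in DSS+UA (-1.42, edgeR adjusted p = 0.0349). Fdps with its copies Gm3571 and Gm5873 summed to 20.9 ± 1.85 CPM in Con, 17.2 ± 7.45 in DSS, 15.3 ± 6.54 in UA+DSS and 35.8 ± 6.12 in DSS+UA. On that sum DSS+UA lay above the other 9 libraries, which Fdps alone did not.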

How the data were processed

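RNA-seq of mouse colon was taken for 12 samples in 4 groups of 3, with groups and replicate numbers from the sample labels. The authors checked reads with FastQC, mapped them to GRCm38 and took gene counts from HISAT2, and Cuffdiff is named in the submitters' processing notes. The deposited values are whole-number counts per Ensembl gene, not normalized. The sources used here do not give versions, strand use, the annotation release or the handling of multiply mapped reads.

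Gene names, exon lengths, overlaps and shared stretches of 50 bases came from GENCODE M21 (GRCm38). Genes were filtered by filterByExpr of edgeR 4.0.16 (R 4.3.3), scaled by TMM and fitted in 1 robust quasi-likelihood model of all 12 samples. The 6 pairs of groups were tested with Benjamini-Hochberg adjustment over the 17658 genes, at 0.05. Branch means were taken of log2 CPM (prior count 2). The fit was tested on simulated data. The members and lists were chosen with earlier results of these data known. All members are named, and of each other list at most the 2 called genes of smallest p in a comparison. Alternatives were other scalings and filters, DESeq2 1.42.0, limma-voom (limma 3.58.1), a fit of the 2 groups compared, a replicate block, the Hox score as covariate and leaving out each library. Per-library summaries used Python 3.11.15 with pandas 2.3.3.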

Additional observations from a re-analysis of the deposited data

Results flagged for a closer look

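The changes in early and late UA, each against the same DSS libraries, differed in 10 of the 32 genes by edgeR's contrast of UA+DSS with DSS+UA. The DSS libraries cancel in it, so these are the calls given above and not a further test. Of all 17658 tested genes 2961 were called in that contrast. The difference, early minus late on the log2 scale, was -1.24 for Mvk, -1.22 for Pmvk, -1.44 for Mvd, -0.76 for Srebf1, -0.97 for Acly, -1.58 for Scd1, -1.94 for Scd2 and -0.43 for Elovl1. It was positive, at 2.38 and 1.97, for Acacb and Me1. The Hox position scores of the 2 groups did not overlap, so position and the timing of UA cannot be told apart here. With the Hox position score as a covariate none of the 10 differences passed the test, and none of the 17658 genes did. In that fit the difference was -1.16 for Mvk, -1.01 for Pmvk, -0.77 for Mvd, -1.49 for Scd1, -1.38 for Scd2 and -0.48 for Elovl1, and nearer to 0, at -0.07, -0.09, 0.01 and -0.22, for Srebf1, Acly, Acacb and Me1.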

How the results depend on the processing

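Over 22 alternatives, 58 results of single genes with an unadjusted p under 0.05 kept their direction and side of the threshold in 1081 cases, lost their call in 124, gained one in 67 and reversed in 4. The reversals all came with the Hox score as a covariate: Acacb -0.48 in UA+DSS against DSS and 0.066 in DSS+UA against Con, and Me1 -0.22 and Elovl6 -1.13 in UA+DSS against DSS+UA.

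The counts of called members moved as follows. All genes called, of those tested, follow each count in brackets. For DSS against Con (2) there was 1 with library size alone (4240 of 17658), no filter (3690 of 31891) or the replicate block (4373 of 17658). There were 0 with the 2 groups alone (2131 of 16958) and 4 with the Hox score (5382 of 17658). For UA+DSS against DSS (0) there were 3 with DESeq2 (4497 of 17658). There was 1 with the 2 groups alone (2072 of 16738) or the replicate block (3151 of 17658). For DSS+UA against DSS (4) there were 11 with DESeq2 (3126 of 17658) and 0 with the Hox score (199 of 17658). There was 1 with library size alone (1143 of 17658), the 2 groups alone (430 of 16420) or the replicate block (552 of 17658). For DSS+UA against Con (2) there were 6 with DESeq2 (4661 of 17658) and 5 with the 2 groups alone (2035 of 16499). There was 1 without a filter (2242 of 31891) and 0 with the Hox score (2170 of 17658). For UA+DSS against DSS+UA (10) there were 16 with DESeq2 (4349 of 17658) and 17 with the 2 groups alone (4284 of 16386). There were 6 with library size alone (2335 of 17658) and 0 with the Hox score (0 of 17658). The sterol median of DSS+UA against Con was 0.56 with the Hox score. The cause of these moves was not tested.

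Leaving out 1 library gave 0 to 4, 0 to 4, 0 to 11, 0 to 0, 0 to 5 and 3 to 18 called members in DSS against Con, UA+DSS against DSS, DSS+UA against DSS, UA+DSS against Con, DSS+UA against Con and UA+DSS against DSS+UA. The numbers of all genes called stand beside the fits named in the Results. In that order the sterol median ran from -0.78 to -0.15, -0.21 to 0.44, 0.55 to 1.20, -0.60 to -0.13, 0.30 to 0.55 and -1.17 to -0.60, and the fatty acid median from -0.47 to 0.01, -0.15 to 0.24, 0.31 to 0.67, -0.25 to -0.003, 0.34 to 0.50 and -0.55 to -0.32.

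Same-numbered samples did not deviate together (r from -0.22 to 0.19 over 18 pairs, 5 of them over 0.1, and 5 of 12 samples closest to their own number), so the numbers do not pair them. The replicate block gave 11 called members in UA+DSS against DSS+UA, where 2998 of all 17658 genes were called. With library size alone the all-gene median was -0.11 in DSS+UA against DSS (140 called higher and 1003 lower, against 448 and 883) and -0.12 in UA+DSS against DSS, and in DSS+UA against Con 1035 were higher and 1557 lower (upper-quartile scaling, 1192 and 1880), against 1613 and 1580.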
